A study of Homo sapiens with 6 samples.

Results

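The genes described here are 3 ERBB receptor genes (EGFR, ERBB2 and ERBB3) and 7 genes for EGF-like ligands (AREG, EREG, HBEGF, TGFA, BTC, NRG1 and EGF), taken by symbol from a table of read counts for 23346 genes. All 10 were found in the table. Poly(A) RNA was sequenced from BT549 cells, a mesenchymal-like human breast cancer cell line of wild-type genotype, after transfection with siRNA against BNC2, a zinc finger protein gene, or with a negative control (NC) siRNA. Each group held 3 biological replicates, both received 20 nM siRNA, and RNA was prepared 6 d later. The BNC2 siRNA was an equal mix of 3 siRNAs in each replicate, so the replicate numbers do not stand for single siRNAs, and all libraries come from 1 cell line.

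ERBB receptors are receptor tyrosine kinases that pair with each other when a ligand binds, and then signal through the RAS-ERK and PI3K-AKT pathways. EGFR binds EGF, TGFA, AREG, BTC, EREG and HB-EGF. ERBB3 binds neuregulins such as NRG1 but has little kinase activity of its own, and ERBB2 has no known soluble ligand and acts as a partner of the others. The ligands are made as membrane-anchored precursors, which proteases of the ADAM family cut to release the soluble growth factor. Mesenchymal-like breast cancer cells are known for high EGFR, and low ERBB3, relative to luminal breast cancer cells.

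The antisense strands of the transfected siRNAs are given below because they define the 2 groups, with the seed (bases 2 to 8 from the 5′ end) in capitals and the deoxythymidine overhang written as t. They come from the list of small RNAs of the study.
BNC2 siRNA 1: uUUACACUgaucacaagucct
BNC2 siRNA 2: uUGUCAUAgaaugucuucctt
BNC2 siRNA 3: uUUCGGCUucguacagaggtt
NC siRNA: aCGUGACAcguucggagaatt

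The libraries held between 16093978 and 18246254 counts. BNC2 was at 51.5, 58.6 and 65.6 CPM (counts relative to library size, scaled by edgeR's TMM method) with NC siRNA and at 35.5, 36.6 and 41.6 CPM with BNC2 siRNA, which left 64.6% of the control level (a log2 fold change of -0.63 with a standard error, SE, of 0.09 and an adjusted p of 8.2e-06). All 8 mesenchymal markers listed had enough reads to be tested, with 3024 CPM for VIM and 152 CPM for CDH2 in the NC siRNA group. All 8 were called: TWIST1, CDH2, SNAI2, FN1, ZEB1 and VIM as higher (log2 fold changes of 1.54, 1.36, 1.15, 0.39, 0.34 and 0.18), and ZEB2 and SPARC as lower (-1.22 and -0.52). Of all genes tested, 72.9% were called, 36.6% as higher and 36.2% as lower. None of the 10 epithelial markers listed had enough reads to be tested, and EPCAM and ESRP1 had 0 counts in each library. The summed level of the epithelial list was 1.14 to 1.63 CPM with NC siRNA and 1.40 to 2.09 CPM with BNC2 siRNA. The sum covers differences in both directions, all at low counts and untested. ESRP2 had 8, 7 and 2 counts with NC siRNA and 13, 23 and 17 with BNC2 siRNA, whereas CLDN4 had 5, 2 and 4 counts and OVOL1 2 counts in each NC siRNA library, and both had 0 in each BNC2 siRNA library. Of the 4 luminal markers, FOXA1 fell from 1.91 to 0.337 CPM, GATA3 was not called at 3.401 and 2.79 CPM (log2 fold change -0.28, adjusted p = 0.195), and ESR1 and PGR had at most 2 counts in a library. Of 7 immune and endothelial markers only CD14 could be tested, with 1.70 and 0.635 CPM in the 2 groups. FOXA1 and CD14 passed the filter on low counts only through the NC siRNA libraries, so a fall was nearly the only difference they could show. The part of these markers in the results below was not tested.

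Genes were tested where more than 1 CPM was seen in at least 3 of the 6 libraries, and called at a Benjamini-Hochberg adjusted p of at most 0.05 from edgeR's quasi-likelihood test over 12186 genes. Of the 10 genes, 5 could be tested: the 3 receptors, HBEGF and NRG1. EGFR, ERBB2 and NRG1 rose, HBEGF fell, and ERBB3 was not called. With 72.9% of all genes tested called, 36.6% as higher and 36.2% as lower, 4 calls among 5 genes is close to the share in the whole table. The libraries of the 2 groups did not overlap in those 4 genes, as was the case in 74.9% of all genes tested.

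**Figure D1:**
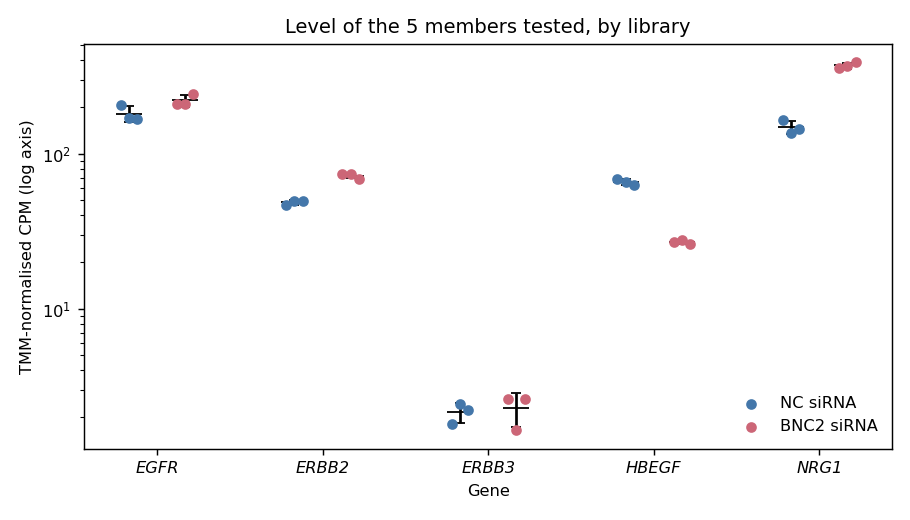
TMM-normalised CPM on a log axis for the 5 genes tested, with 1 point for each of the 3 libraries per group (blue, NC siRNA; red, BNC2 siRNA) and black bars for the mean and SD. NRG1 lies between 136 and 164 CPM with NC siRNA and between 356 and 389 CPM with BNC2 siRNA, and HBEGF moves the other way, whereas the points of ERBB3 overlap.

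EGFR, the receptor of most ligands listed here, had the highest level of the 3 receptors, per transcript length. It lies on chromosome 7 of GRCh37 from 55086710 to 55279321 on the plus strand. With NC siRNA, EGFR stood at 205.9, 169.7 and 168.0 CPM, and with BNC2 siRNA at 210.4, 209.1 and 242.7 CPM. The groups did not overlap, but NC siRNA replicate 1 came close to the lower BNC2 siRNA libraries. The rise was 1.22-fold (a log2 fold change of 0.28 with an SE of 0.08 and an adjusted p of 0.00393 in edgeR). It was 0.37 without NC siRNA replicate 1 and 0.21 without BNC2 siRNA replicate 3, and 65.6% of all genes tested changed by at least as much in either direction.

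ERBB2, the partner receptor without a ligand of its own, lies on chromosome 17 from 37844167 to 37886679 on the plus strand. It had 46.7, 49.8 and 49.3 CPM with NC siRNA and 73.6, 74.2 and 69.0 CPM with BNC2 siRNA. Every BNC2 siRNA library was well above every NC siRNA library, with an SD of 1.67 and 2.86 CPM in the 2 groups. The rise was 1.49-fold (a log2 fold change of 0.57 with an SE of 0.06 and an adjusted p of 5.9e-07).

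ERBB3, the neuregulin receptor, lies on chromosome 12 from 56470583 to 56497289 on the plus strand and was close to the limit of the filter. Its counts were 32, 43 and 37 with NC siRNA and 45, 29 and 41 with BNC2 siRNA, or 2.15 ± 0.311 and 2.29 ± 0.565 CPM (SD, n = 3). The groups overlapped fully. The log2 fold change was 0.09 with a 95% interval of -0.38 to 0.55 and an adjusted p of 0.757 (edgeR), an interval that holds both 0 and the change of EGFR. ERBB4, the remaining receptor of the family, had at most 3 counts in a library.

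NRG1, a ligand of ERBB3 and ERBB4, showed the largest rise of the 5 genes tested. It lies on chromosome 8 from 31496738 to 32713184 on the plus strand. NRG1 stood at 164.0, 136.3 and 144.8 CPM with NC siRNA and 356.0, 369.0 and 388.7 CPM with BNC2 siRNA. Every BNC2 siRNA library was thus far above every NC siRNA library. In edgeR the log2 fold change came to 1.32, with an SE of 0.07 and an adjusted p of 3.6e-11, and 4.11% of all genes tested rose by at least as much. The counts are summed over all transcripts of the gene, so they do not tell which of the many neuregulin 1 isoforms rose.

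HBEGF, which encodes the heparin-binding ligand of EGFR and ERBB4, was the only gene of the 10 to be called as lower. It lies on chromosome 5 from 139712428 to 139726188 on the minus strand. It had 68.9, 65.3 and 63.1 CPM with NC siRNA and 26.99, 27.64 and 25.98 CPM with BNC2 siRNA. The replicates were close, with coefficients of variation of 4.50% and 3.12%. The fall was 2.45-fold (a log2 fold change of -1.29 with an SE of 0.07 and an adjusted p of 8.2e-11), and 6.79% of all genes tested fell by at least as much. At least 2-fold rises were called in 8.07% and at least 2-fold falls in 10.1% of all genes tested, so changes of the size of NRG1 and HBEGF were not the rule in the table.

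**Figure D2:**
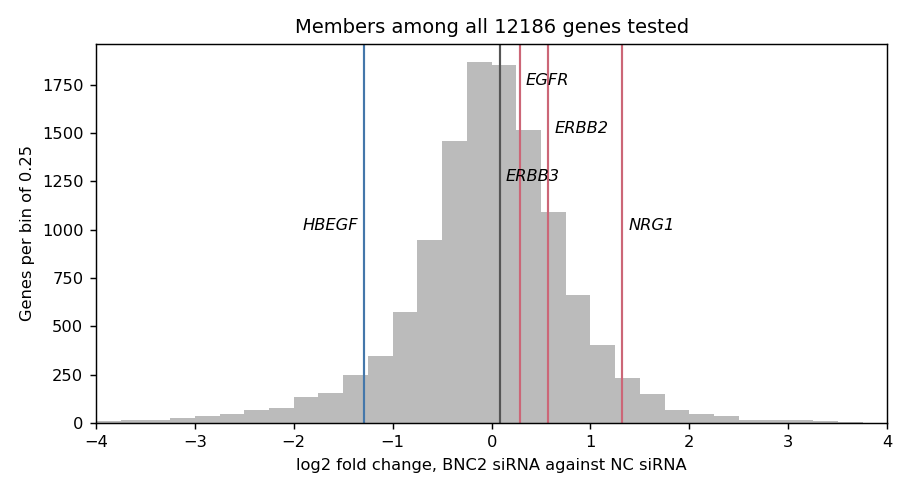
Number of genes per bin of 0.25 in the log2 fold change (BNC2 siRNA against NC siRNA) over all genes tested, cropped at -4 and 4, with vertical lines for the 5 genes (red, called as higher; blue, called as lower; grey, not called). NRG1 at 1.32 and HBEGF at -1.29 lie in opposite flanks, and the 3 receptors lie nearer to the centre, at 0.09 to 0.57.

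The other 5 ligands had hardly any reads. TGFA had 1, 0 and 0 counts with NC siRNA and 1, 1 and 2 with BNC2 siRNA, and for EREG a single NC siRNA library held 1 read. EGF had 2, 3 and 1 counts with NC siRNA and 0 in each BNC2 siRNA library. BTC had 0 counts in each library. As a count of 0 allows up to 3 counts, equal to 0.168 to 0.191 CPM in these libraries, no fold change is given for these genes. When the filter on low counts was left out, EGF, TGFA and EREG were not called, with adjusted p-values of 0.07, 0.399 and 0.487 over 18121 genes (edgeR).

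AREG, the amphiregulin gene, also had 0 counts in each library, but this 0 differs in kind. The gene lies on chromosome 4 of GRCh37 from 75310853 to 75320722, and the same assembly holds a second copy of its exons on chromosome 4 between 75480629 and 75490481. Of the 790 windows of 75 bases, the read length of the libraries, that fit within exons of AREG, 758 (95.9%) occur at more than 1 place in the assembly. The counts hold uniquely mapped reads only, so nearly all AREG reads would be left out of them and the level of AREG cannot be read from this table. For the other 9 genes, between 0% and 0.332% of the windows occur more than once, so this limit hardly touches TGFA, EREG, BTC and EGF.

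**Figure D3:**
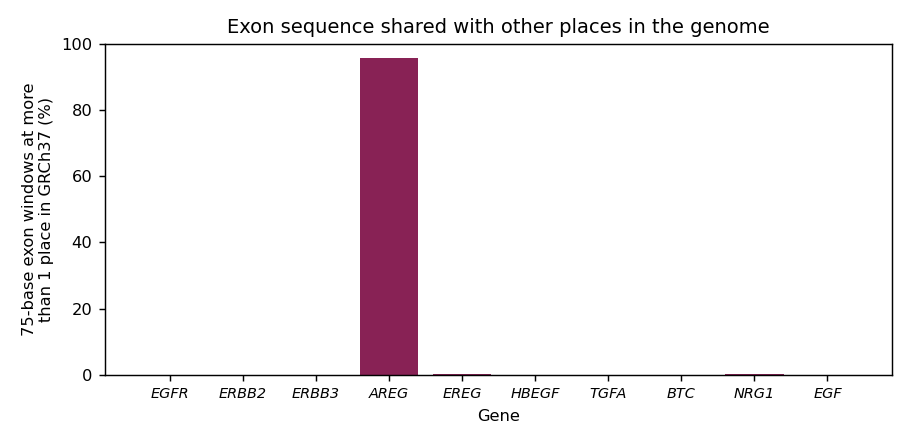
Share of the 75-base windows within the exons of each gene that occur at more than 1 place in GRCh37, on a percent axis from 0 to 100. AREG stands at 95.9%, and the other 9 genes at 0.332% or less.

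Levels of different genes can be compared only per length, for which CPM was divided by the length in kilobases of the canonical transcript. With NC siRNA the order was HBEGF (27.9 ± 1.26 CPM per kb), EGFR (18.3 ± 2.16), NRG1 (12.4 ± 1.18), ERBB2 (10.7 ± 0.365) and ERBB3 (0.382 ± 0.0554; SD, n = 3 for each). The libraries of NRG1, at 11.4 to 13.7, and of ERBB2, at 10.2 to 10.9, were close to each other. With BNC2 siRNA the order was NRG1 (31.0 ± 1.37 CPM per kb), EGFR (22.3 ± 1.92), ERBB2 (15.9 ± 0.627), HBEGF (11.4 ± 0.356) and ERBB3 (0.407 ± 0.101), and no 2 neighbours in that order overlapped. HBEGF thus went from the first place to the fourth, and NRG1 from the third to the first.

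The place of NRG1 rests on the length assumed for it. Its canonical transcript has 11983 bases, whereas its 26 protein-coding transcripts have a median of 1952 bases, for which NRG1 would stand at 76.0 CPM per kb with NC siRNA and 190 CPM per kb with BNC2 siRNA, above the 27.9 and 11.4 of HBEGF in both groups. EGFR, at 63.1 and 76.9 CPM per kb, and ERBB2, at 15.0 and 22.3, also move when the median of their coding transcripts is used. This alternative was chosen after the data had been seen.

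The fold change of the ratio between the 2 ligands does not depend on the length assumed, while the ratio itself and the shares below do. Per length of the canonical transcripts, NRG1 was at 0.468, 0.411 and 0.452 of HBEGF in the NC siRNA libraries and at 2.6, 2.63 and 2.94 times HBEGF in the BNC2 siRNA libraries. The ratio thus rose 6.14-fold, without overlap between the groups. Of the summed ligand level per length, HBEGF made up 68.1% to 70.8% with NC siRNA and 25.3% to 27.8% with BNC2 siRNA, with AREG not measurable. With the median lengths above, NRG1 would be the larger of the 2 in both groups. Among the receptors, EGFR made up 60.1% to 66.3% and 56.0% to 61.1%, which overlap, and ERBB3 between 0.773% and 1.51% of the level in any library. The ratio of ERBB2 to EGFR was 0.589 ± 0.0837 with NC siRNA and 0.717 ± 0.0856 with BNC2 siRNA (SD, n = 3), also with overlap. The ratio of ERBB3 to ERBB2 was 0.0313 to 0.0393 with NC siRNA and 0.0179 to 0.0307 with BNC2 siRNA, without overlap, and rests on the low counts of ERBB3. In an exact two-sided permutation test over the libraries, 3 against 3 cannot give a p below 0.1. In it p was 0.1 for NRG1 to HBEGF, 0.3 for ERBB2 to EGFR, 0.5 for ERBB3 to EGFR and 0.1 for ERBB3 to ERBB2. After Benjamini-Hochberg adjustment over these 4 ratios, p was 0.2, 0.4, 0.5 and 0.2. NRG1 and HBEGF each separated the groups, in opposite directions, so their ratio had to give the lowest p. That p thus adds nothing to the values of the 2 genes, and the ratios were not among the comparisons planned.

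**Figure D4:**
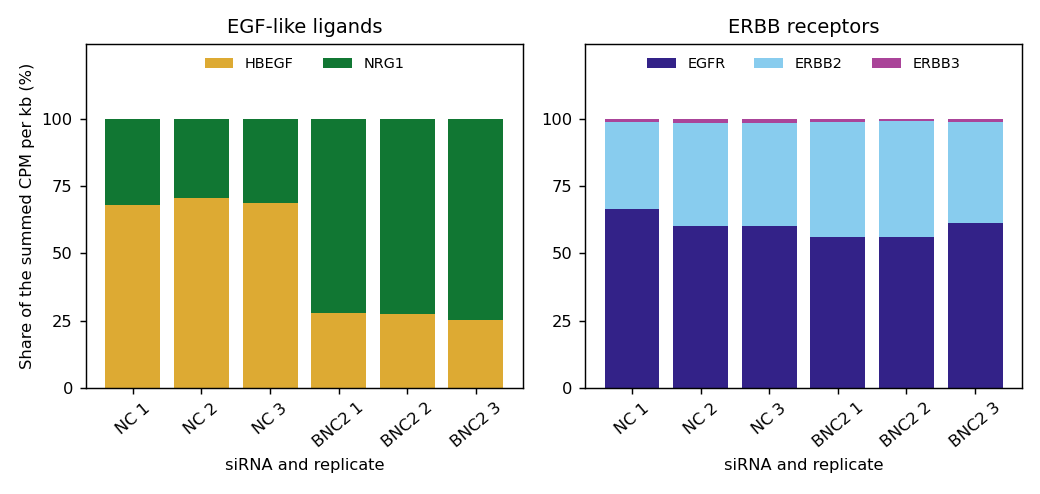
Share in percent of the summed CPM per kb for the EGF-like ligands (left) and the ERBB receptors (right) at canonical transcript lengths, with 1 stacked bar for each library. HBEGF takes 68.1% to 70.8% of the ligand level in the NC siRNA libraries and 25.3% to 27.8% in the BNC2 siRNA libraries, and the receptor shares differ less between the groups.

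The other genes of the pathway were grouped by role. In the family itself, NRG2, another neuregulin, had 39, 40 and 36 counts with NC siRNA and 11, 4 and 7 with BNC2 siRNA, a fall from 2.20 ± 0.0368 to 0.437 ± 0.207 CPM (a log2 fold change of -2.32 with an SE of 0.32 and an adjusted p of 6.9e-06). NRG2 passed the filter on low counts only through the NC siRNA libraries, where it is high, so once tested it could hardly show anything but a fall. ERBB4, EPGN, NRG3 and NRG4 had at most 4 counts in a library and were not tested.

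Of 13 genes for the shedding and trafficking of the ligands, 9 were tested, of which 4 rose and 3 fell (median log2 fold change 0.07 against 0.0014 over all genes tested). The shares, 44.4% higher and 33.3% lower, are near those of all genes tested (36.6% and 36.2%). Those that fell include ADAM17, the main sheddase of HB-EGF and several other ligands, which went from 97.3 ± 8.20 to 62.0 ± 3.15 CPM (a log2 fold change of -0.65 with an SE of 0.07 and an adjusted p of 3.8e-07). FRMD8, which stabilises the complex of ADAM17 and its iRhom partners at the cell surface, fell from 71.2 to 23.1 CPM (log2 fold change -1.62, adjusted p = 1.2e-11). CD9, a tetraspanin that binds the HB-EGF precursor, had 162, 183 and 208 CPM with NC siRNA and 30.0, 29.1 and 26.9 CPM with BNC2 siRNA, the largest fall of the list (a log2 fold change of -2.69 with an SE of 0.09 and an adjusted p of 1.4e-13). The iRhom genes RHBDF1 and RHBDF2 were not called, with log2 fold changes of 0.07 and -0.16. ADAM9, ADAM12, ADAM10 and NRD1 rose, with log2 fold changes of 0.83, 0.59, 0.50 and 0.30. ADAM10 is the main sheddase of EGF and BTC, both of which had next to no reads.

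All 16 adaptors and effectors, which bind the activated receptors or are brought to them by those that do, were tested. Of these 5 rose (31.2%), 6 fell (37.5%) and 5 were not called (median -0.01), again near the shares of all genes tested. The rise of PIK3R2 was small (log2 fold change 0.16, adjusted p = 0.03) and was not called in 7 of the 14 alternatives. EPS8, a substrate of EGFR that links it to actin, fell from 100.3 ± 3.71 to 29.8 ± 0.879 CPM (log2 fold change -1.75, adjusted p = 9.5e-13). PIK3R3, CRKL and PIK3R1 also fell, with log2 fold changes of -1.33, -1.30 and -0.98. PIK3R3 and PIK3R1 encode regulatory subunits of PI3-kinase, while PIK3CB, a catalytic subunit, rose by 0.88 and PTPN11, the phosphatase SHP2, by 0.79, followed by SOS1 (0.36) and PLCG1 (0.22). GAB2, called as lower at 3.00 against 1.79 CPM, did not fall when reads of both strands were counted (log2 fold change 0.02, adjusted p = 0.899). SHC1 and GRB2, which couple the receptors to RAS, had log2 fold changes of 0.03 (adjusted p = 0.623) and -0.37 (adjusted p = 1.5e-05).

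The 17 genes listed as receptor inhibitors and degradation factors were all tested. They act on receptor activity, turnover or ubiquitination, and not all of them restrain the receptors: USP8, which was not called, removes ubiquitin from EGFR. Of the 17, 8 rose (47.1%), 4 fell (23.5%) and 5 were not called (median 0.10), with 70.6% called in all against 72.9% of all genes tested. SOCS4, 1 of the 8 (log2 fold change 0.24, adjusted p = 0.0414), was not called in 7 of the 14 alternatives. CD2AP and SH3KBP1, adaptors in the uptake of receptors, and CBL, the ubiquitin ligase of EGFR, rose with log2 fold changes of 1.03, 0.62 and 0.87. LRIG3, a membrane protein of the LRIG family, also rose, by 0.68. Its relative LRIG1, which lowers ERBB receptor levels, fell from 49.6 ± 3.86 to 30.3 ± 1.81 CPM (log2 fold change -0.71, adjusted p = 5.2e-07), and SOCS5, CBLB and PTPN2 fell by less (log2 fold changes of -0.35, -0.22 and -0.18). Of these, PTPN2 was not called in 5 of the 14 alternatives, among them the replicate block (adjusted p = 0.0636), SOCS5 not without NC siRNA replicate 1 (log2 fold change -0.20, adjusted p = 0.0658) and CBLB not without BNC2 siRNA replicate 1 (adjusted p = 0.0584). ERRFI1, a feedback inhibitor of EGFR, was not called (log2 fold change 0.05, adjusted p = 0.423). Scaled by total counts only, 7 genes of the list were called as lower in place of 4, and 2 without BNC2 siRNA replicate 1.

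Of 10 genes that ERK signalling is known to raise, 8 fell, 1 rose and 1, EPHA2, was not called (median -0.78). The share of falls, 80%, stands against 36.2% in all genes tested. This list was chosen with earlier results of these data known, and the contrast was not tested. DUSP4, a phosphatase that inactivates ERK, had 69.3, 78.6 and 77.2 CPM with NC siRNA and 22.5, 19.5 and 20.9 CPM with BNC2 siRNA (log2 change -1.84 with an SE of 0.08 and an adjusted p of 4.9e-12). EPHA4, CCND1 (cyclin D1) and the transcription factor gene ETV5 fell too, with log2 fold changes of -1.75, -1.39 and -1.24, as did DUSP6, SPRY4, ETV4 and SPRY2 (-0.95, -0.61, -0.33 and -0.29). PHLDA1 moved the other way, from 205 ± 4.16 to 301 ± 7.36 CPM (log2 fold change 0.56, adjusted p = 7.4e-08). These genes respond to other inputs too, and ERK activity was not measured in these libraries.

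**Figure D5:**
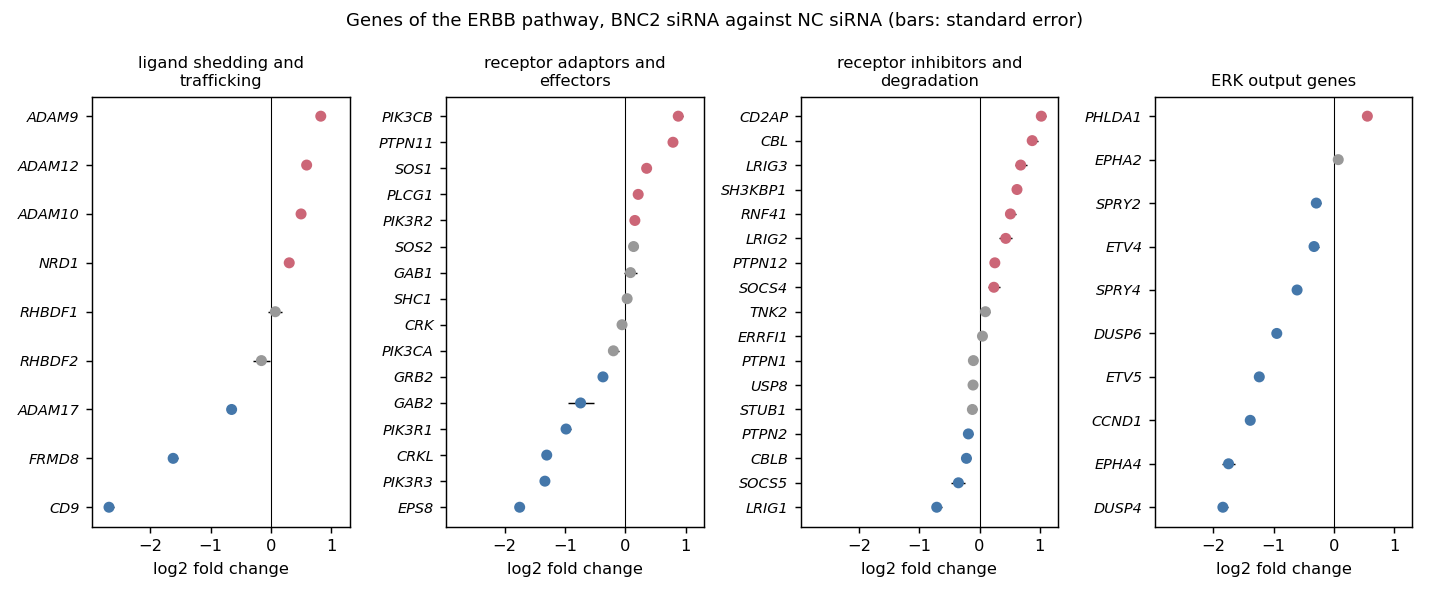
Log2 fold change (BNC2 siRNA against NC siRNA) of each gene tested in 4 lists of the ERBB pathway, with bars for the standard error (red, called as higher; blue, called as lower; grey, not called). The ERK output genes lie mostly to the left of 0, down to -1.84 for DUSP4, whereas the other 3 lists spread to both sides.

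Because the groups differ by the siRNAs, the 3′ UTRs of the 10 genes and of BNC2 were searched for matches to the siRNA seeds, that is, for the 7 letters that pair with bases 2 to 8. A site of BNC2 siRNA 1 (AGTGTAA), which 11.5% of 18495 genes hold in the 3′ UTR of their canonical transcript, was found once each in HBEGF, EGFR, ERBB3 and BNC2 itself. BNC2 also held 1 site of BNC2 siRNA 2. None of the 10 genes held a site of BNC2 siRNA 2 (TATGACA, in 9.07% of genes), BNC2 siRNA 3 (AGCCGAA, 1.86%) or the NC siRNA (TGTCACG, 2.70%). The 3 sites in HBEGF, EGFR and ERBB3 are given from GRCh37 in the direction of the transcript with the seed match in capitals, at chr5:139712904-139712926 on the minus strand for HBEGF, chr7:55277840-55277862 on the plus strand for EGFR and chr12:56496244-56496266 on the plus strand for ERBB3.
HBEGF: gatgtcaaAGTGTAAcagatatc
EGFR: catctgccAGTGTAAccctgtac
ERBB3: cagaggaaAGTGTAAttttggtt
The longest run of pairing with the siRNA was 7 bases at the HBEGF and ERBB3 sites and 8 at the EGFR site. Of these genes HBEGF fell, EGFR rose and ERBB3 was not called. The part of seed matches in these differences was not tested.

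Promoters of 8 of the 10 genes, from 250 bases before to 50 bases after the start, were taken from RefSeq (GRCh38.p14), without ERBB3 and NRG1. They were searched on both strands for AP-1 (TGANTCA, in 7.76% of 27305 promoters), CRE (TGACGTCA, 1.98%), the TATA box (TATAAA, 12.0%), the GC box (GGGCGG, 44.6%), ETS (CCGGAAG, 10.7%), the E-box (CACGTG, 7.43%) and TEAD (GGAATG, 14%). Matches that overlap were each counted. HBEGF and EGFR held 5 and 3 GC boxes, and no other motif searched. ERBB2 held no GC box but 1 AP-1 and 2 ETS matches. The sites are shown for genes that were called, with the match in capitals, in the direction of the gene: the AP-1 match of ERBB2 (chr17:39687862-39687888, plus strand), an ETS match of ERBB2 (chr17:39688070-39688096, plus strand), a GC box of HBEGF (chr5:140346661-140346686, minus strand) and a GC box of EGFR, matched on the opposite strand (chr7:55018971-55018996, plus strand).
ERBB2 AP-1: ggagcggaagTGATTCAgagcgccccc
ERBB2 ETS: tccggagtaaCCGGAAGttcctgtgtt
HBEGF GC box: aggagggaggGGGCGGcgccgggcgg
EGFR GC box: cctcctcctcCCGCCCtgcctccccg
A match is a stretch of letters, and binding was not measured.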

How the data were processed

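Poly(A) RNA of 6 BT549 libraries was sequenced by the authors as single-end reads, which they aligned to hg19 (iGenomes UCSC annotation) with STAR 2.6.1d, per the methods and processing notes. The deposited counts are whole numbers of uniquely mapped reads per gene, without normalisation. In each of 23346 genes they equal the column of STAR's library tables meant for reverse-stranded libraries. Reads called opposite-strand below are those of the other stranded column, which the deposited counts do not hold. Reads that were unmapped, mapped to several places, fell in no gene or were ambiguous between genes (37.7% to 41.1% together) were left out.

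A filter of above 1 CPM in 3 or more libraries preceded the test with edgeR 4.0.16 (TMM, quasi-likelihood test, Benjamini-Hochberg adjustment, no replicate block) in R 4.3.3. The standard error is the log2 fold change divided by the square root of F, and intervals use the normal approximation. Replicate numbers were not used as pairs, since the labels give no shared origin and same-numbered libraries did not deviate together. On simulated counts for this comparison (12055 genes tested), 97.4% of 196 genes changed 2-fold were recovered, with 6 false calls. Only 200 genes differed between the groups in those counts, whereas 72.9% of all genes tested were called in the data. The number of false calls, or the TMM scaling, with so large a share of differing genes was not tested. Positions, canonical transcripts and 3′ UTRs are from GENCODE 44 on GRCh37, the assembly of hg19. A length was matched for 96.9% of the genes tested, and windows of 75 bases were counted in the whole assembly with Python 3.11.15.

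The members and the gene lists were chosen with earlier results of these data known. The rule for named genes took every member, BNC2, and in each pathway list among called genes, up to 4 rises and 4 falls, largest first. Other list genes, such as genes not called, GRB2, GAB2 and the lesser falls among ERK output genes, were named after their values were seen. Alternatives were edgeR's likelihood ratio test, DESeq2 1.42.0, DESeq2 size factors, total counts only, no filter, filterByExpr, a replicate block, both strands, and leaving out each library. The floor of 3 counts covers counting error only.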

Additional observations from a re-analysis of the deposited data

Results flagged for a closer look

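Reads on the strand opposite to NRG1, which the comparisons above do not use, were more frequent with BNC2 siRNA, at a mean of 3.57 CPM against 1.86 CPM with NC siRNA (52 to 65 against 29 to 36 reads per library). They made up 0.950% and 1.24% of the reads of both strands at the gene. For the other 9 genes, opposite-strand reads of the BNC2 siRNA libraries did not all lie above those of the NC siRNA libraries. Those of ERBB2 all lay below, at 8, 12 and 9 reads with BNC2 siRNA against 13, 18 and 16 with NC siRNA (means of 0.572 and 0.901 CPM).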

How the results depend on the processing

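EGFR, ERBB2, NRG1 and HBEGF kept their direction and their call under each of the 14 alternatives, with log2 fold changes of 0.21 to 0.37, 0.50 to 0.60, 1.25 to 1.38 and -1.37 to -1.26. ERBB3 was called under none of them, and its direction reversed without NC siRNA library 1 or without BNC2 siRNA library 1 or 3 (log2 fold changes of -0.0482, -0.0235 and -0.0186, and -0.0482 to 0.29 over the libraries left out in turn). The replicate block, for which same-numbered libraries correlated at -0.208, -0.0811 and -0.13, gave 8400 for all genes called against 8879, and kept 3 members as higher and 1 as lower. It changed no call of a member but lost those of PIK3R2, SOCS4 and PTPN2 (adjusted p = 0.078, 0.0602 and 0.0636 in edgeR), and BNC2 fell by 0.63 with it. Genes of the 5 lists that reversed were not called in either fit or, for GAB2, in the alternative: under total counts only RHBDF1 (-0.00291), SHC1 (-0.0448), ERRFI1 (-0.0273) and EPHA2 (-0.0026), with both strands GAB2 (0.0237), and with 1 library left out RHBDF1 (-0.0437 to 0.14) and SHC1 (-0.0245 to 0.0514). NRG2 passed the filter in 0 of the fits that left out an NC siRNA library, since 3 libraries above 1 CPM were then no longer at hand, and the count of lower genes in its list went from 1 to 0. The receptor inhibitors called as lower were 7 under total counts only and 2 to 4 with 1 library left out, against 4. The median log2 fold change of all genes was -0.0745 under total counts only, against 0.0014. The depth limits ERBB3, NRG2, EREG, TGFA, BTC and EGF, whereas AREG is limited by its second copy in the assembly.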
